A study of Homo sapiens with 12 samples.

Results

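The m1A peaks of ALKBH3 knockdown cells were described from 3 peak lists, 1 per replicate, each holding the regions enriched in the m1A immunoprecipitate (IP) over input. The cells were SNU-668, a human gastric cancer line, resistant to erastin and transfected with shRNA-ALKBH3. Members were all distinct peaks of these 3 lists by chromosome, start and end, and all gene names they carry. They comprised 55791 of the 79668 distinct positions and 9769 of the 10226 gene names in the whole series. The series has 12 samples, 6 IP and 6 input, of which the control shRNA libraries, also erastin-resistant and labelled WT, were not used here. The labels do not say whether the replicates came from separate cultures or transfections, nor whether the knockdown line is 1 clone. The spread given below is therefore between samples and may be technical. With 1 group and no read counts, no test was made, and every share or median below is a description of the 3 lists.

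N1-methyladenosine (m1A) is a methyl group on the face of adenine that pairs with the opposite strand, so it blocks base pairing and stalls reverse transcriptase. It is common in tRNA, where the TRMT6 and TRMT61A complex writes it, and in mitochondrial RNA, where TRMT61B and TRMT10C write it, and it occurs at lower levels in mRNA. ALKBH3 is an iron-dependent dioxygenase that takes the methyl group off m1A and also repairs alkylated DNA. Erastin inhibits the cystine importer SLC7A11 and kills cells by ferroptosis, a death driven by iron and lipid peroxidation. An m1A antibody enriches RNA fragments, so a peak marks a stretch of a transcript and not a modified base.

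The lists differed widely in length. Replicate 1 held 34691 distinct peaks in 8426 genes, replicate 2 held 13056 peaks in 6003 genes, and replicate 3 held 8474 peaks in 4475 genes. The mean was 18740 ± 14002 peaks and 6301 ± 1992 genes (SD, n = 3). The peaks covered 7.98 Mb of exon sequence in replicate 1, 1.71 Mb in replicate 2 and 0.966 Mb in replicate 3. No list gives read numbers, so list length cannot be set against depth. Replicate 1 stands apart by its length, and values that move with it are given per list.

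ALKBH3 itself, the knockdown target, had 1 peak in replicate 1, in its coding sequence, at a log2 enrichment of 2.31, and none in replicates 2 and 3. A peak list says nothing of the amount of ALKBH3 mRNA, so these data do not check the knockdown.

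Of the 9769 genes with a peak, 2858 (29.3%) had one in all 3 lists. A further 3419 genes had peaks in 2 lists and 3492 (35.7%) in 1 list. The shared genes made up 33.9% of the genes of replicate 1, 47.6% of replicate 2 and 63.9% of replicate 3. Most genes of the shorter lists recurred in the longest one. Replicate 1 held 83.5% of the genes of replicate 2 and 86.1% of the genes of replicate 3, while replicate 2 held 69.9% of the genes of replicate 3. Only 352 genes were found in replicate 3 alone, against 2418 in replicate 1 alone.

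**Figure D1:**
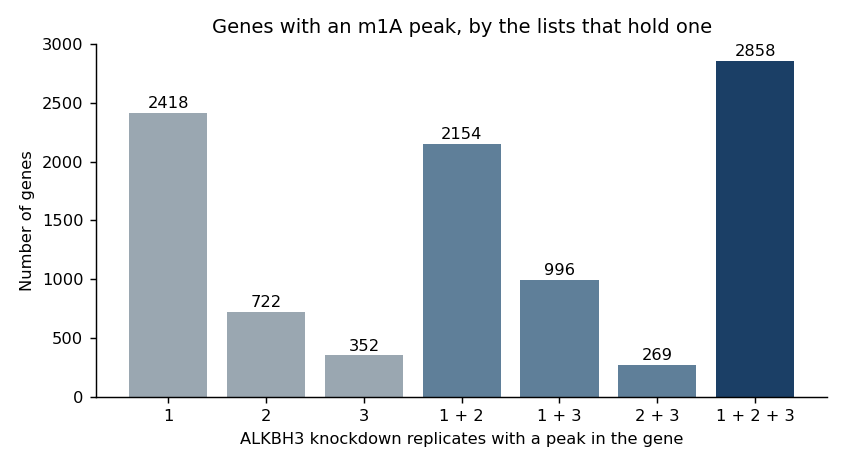
Number of genes (y axis) with an m1A peak in each combination of the 3 ALKBH3 knockdown lists (x axis). The 2858 genes of all 3 lists form the tallest bar, followed by the 2418 genes found in replicate 1 alone and the 2154 shared by replicates 1 and 2.

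Sharing a gene was much more frequent than sharing a position. Overlapping peaks of the 3 lists (same strand, 1 base or more) were joined into 42987 positions. Of these, 37580 (87.4%) had peaks of 1 list, 1353 (3.15%) had peaks of all 3 lists, and 1034 (2.41%) had a base that all 3 lists covered. These 1034 positions took in 4.79% of the peaks of replicate 1, 14.9% of replicate 2 and 21.3% of replicate 3. Among the 2858 genes with a peak in every list, 879 (30.8%) had such a base, or 857 (30.0%) when introns inside spliced peaks were left out. In exon sequence, 193954 bases were covered in all 3 lists, which was 2.43% of the bases of replicate 1, 11.3% of replicate 2 and 20.1% of replicate 3. The remaining genes of all 3 lists had no base that all of them covered.

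The positions that recurred were long and weakly enriched. Peaks at a position with an exonic base covered in all lists had a median log2 enrichment of 1.86 in replicate 1, 1.51 in replicate 2 and 1.36 in replicate 3. The other peaks of the same lists had medians of 2.01, 2.41 and 2.29 in replicates 1, 2 and 3. The recurrent peaks had a median exonic length of 500, 125 and 100 nt in replicates 1, 2 and 3, against 100, 75 and 50 nt for the other peaks. The part of peak length in the sharing was not tested. In replicate 3, 48.7% of the least enriched quartile of peaks lay at a recurrent position, against 4.11% of the most enriched quartile. In replicate 2 the corresponding shares were 33.1% and 2.85%, and in replicate 1 they were 4.23% and 2.36%. Ranked instead by false discovery rate, the quartile with the lowest rates was the most shared. That quartile had 7.29% of its peaks at recurrent positions in replicate 1, 16.4% in replicate 2 and 25.5% in replicate 3, against 0.669%, 7.84% and 12.5% in the quartile with the highest rates. Enrichment and false discovery rate thus ranked the recurrent peaks at opposite ends.

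Sharing of genes and of bases both varied with transcript length. Among genes whose longest listed transcript was under 1000 nt, 24.4% had a peak in all 3 lists. The share was 21.8% from 1000 to under 2000 nt, 25.02% from 2000 to under 4000 nt, 35.2% from 4000 to under 8000 nt and 50.4% at 8000 nt and over, so it was higher only from 4000 nt on. Of the genes in all 3 lists, 70.6% of those under 1000 nt had an exonic base covered in all, and the share was lower in each longer class, down to 14.6% at 8000 nt and over. Genes with longer transcripts also had more peaks. The mean number of peaks per gene was 1.68 in the shortest class and 6.84 in the longest in replicate 1, 1.48 and 3.19 in replicate 2, and 1.46 and 2.44 in replicate 3. The part of length in the sharing was not tested.

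**Figure D2:**
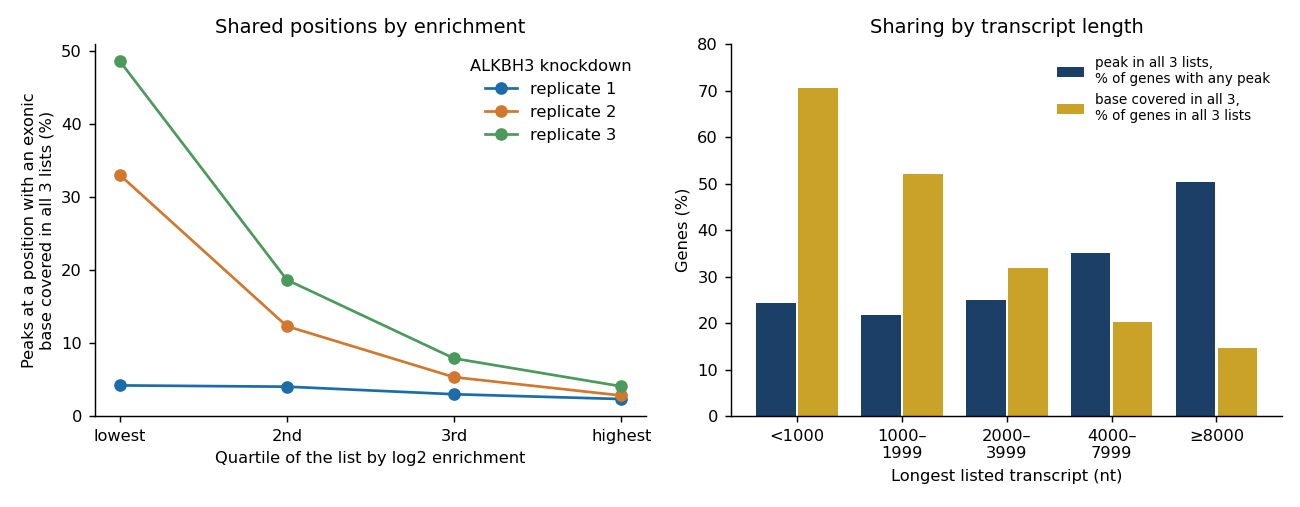
Left, the share of peaks (%) at positions with an exonic base covered in all 3 ALKBH3 knockdown lists, by quartile of each list ranked by log2 enrichment. It was 48.7% in the lowest and 4.11% in the highest quartile of replicate 3. Right, by transcript length in nt, the share of genes with a peak in all 3 lists and the share of those with an exonic base covered in all 3, which was 70.6% under 1000 nt and 14.6% at 8000 nt and over.

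Only 27 peaks had the same start and end in all 3 lists, and 12 of them lay in 5′ UTRs, the region that held 2.94% of peaks on average. Another 7 were coding, 5 ran from coding sequence into the 3′ UTR, and 1 was in a 3′ UTR. The remaining 2 had regions that differed between transcripts. Of the 27, 3 were mitochondrial and 9 were spliced. The 4 named positions that were 5′ UTR in every list and had the highest lowest rank were those of MTRNR2L12, PLD3, CPNE3 and WDR26. The peak of PLD3, a lysosomal exonuclease of the phospholipase D family, lay at chr19:40865549-40865598 on the plus strand (hg19). Its log2 enrichment was 5.09 in replicate 1, 4.70 in replicate 2 and 4.24 in replicate 3, a narrow range. CPNE3, a calcium-dependent membrane-binding copine, had values of 4.78, 3.82 and 4.70 in replicates 1, 2 and 3 in a peak of 38 nt. WDR26, a subunit of the CTLH ubiquitin ligase, had a peak of 2 blocks with log2 enrichments of 4.90, 3.79 and 3.43 in replicates 1, 2 and 3. Other 5′ UTR peaks with identical ends, chosen after their values were seen, lay in TIAL1, SMAD3 and BSG. TIAL1, an RNA-binding protein of stress granules, had log2 enrichments of 5.60, 3.26 and 3.78 in replicates 1, 2 and 3. SMAD3, which carries TGF-β signals, had 2.14, 1.63 and 1.16. BSG, a chaperone of lactate transporters, had 2.66, 1.12 and 1.28. Many of the 27 peaks, among them those of CPNE3 (38 nt), BSG (94 nt) and PCBP2 (467 nt), had lengths that were not a multiple of 25 nt. In whole lists, 94.9 to 98.0% of peaks had such a multiple. What set the identical ends was not tested.

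By transcript region, coding sequence and 3′ UTR together held most peaks, but their balance differed between lists. Where the transcripts listed for a peak gave different regions, the peak was kept apart (14.0%, 8.85% and 8.56% of replicates 1, 2 and 3). Coding sequence alone held 55.7% of peaks in replicate 1 (95% Wilson interval 55.2 to 56.2%), 45.3% in replicate 2 (44.4 to 46.1%) and 39.9% in replicate 3 (38.8 to 40.9%). The 3′ UTR held 19.7% in replicate 1 (19.3 to 20.2%), 39.2% in replicate 2 (38.3 to 40.02%) and 44.1% in replicate 3 (43.1 to 45.2%). The intervals cover counting error only. The 5′ UTR held little in each list, at 3.32%, 2.62% and 2.88% in replicates 1, 2 and 3. Over the 3 lists the means were 46.9% ± 8.07 for coding sequence, 34.4% ± 12.9 for 3′ UTR and 2.94% ± 0.35 for 5′ UTR (SD, n = 3). Replicate 1 had more coding than 3′ UTR peaks, replicate 3 the reverse. Peaks that spanned the stop codon, covering coding sequence and 3′ UTR, made up 4.96%, 3.28% and 3.56% of replicates 1, 2 and 3. Those spanning the start codon made up 1.99%, 0.797% and 1.00%.

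Enrichment was higher in 3′ UTR peaks than in coding peaks in each of the 3 lists. The median log2 enrichment of 3′ UTR peaks was 2.18 in replicate 1, 2.67 in replicate 2 and 2.42 in replicate 3. Coding peaks had medians of 1.95, 2.08 and 1.92 in replicates 1, 2 and 3. The difference, 3′ UTR minus coding, averaged 0.44 ± 0.19 (SD, n = 3). The 5′ UTR peaks had medians of 2.34, 2.40 and 2.10 in replicates 1, 2 and 3, and exceeded coding peaks by 0.30 ± 0.10 (SD, n = 3). Peaks across the stop codon were lower, with medians of 1.89, 1.98 and 1.70 in replicates 1, 2 and 3. The positions that recurred did not share the 3′ UTR weight. Of the peaks at positions with an exonic base covered in all lists, 15.5%, 20.2% and 23.2% in replicates 1, 2 and 3 were in 3′ UTRs, against 19.9%, 42.1% and 49.3% of the other peaks. Of the 1034 positions, 285 (27.6%) were coding in every list, 145 (14.0%) were 3′ UTR and 19 (1.84%) were 5′ UTR.

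**Figure D3:**
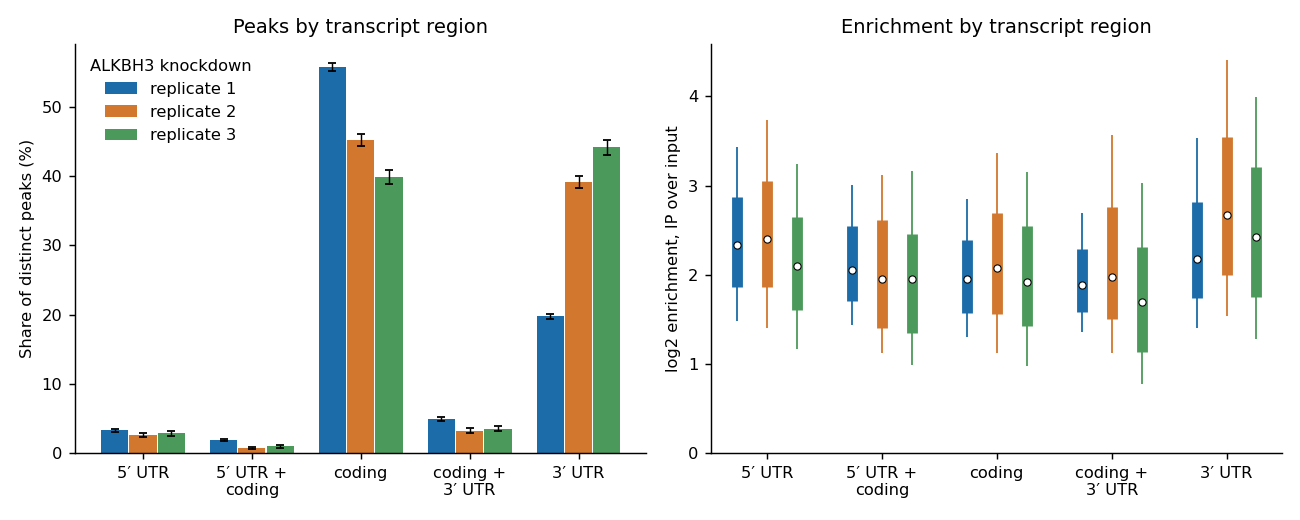
Left, share of distinct peaks (%) by transcript region in each ALKBH3 knockdown list, with 95% Wilson intervals that cover counting error only. Right, log2 enrichment of IP over input by region, with the median (point), the 25th to 75th percentile (thick bar) and the 10th to 90th percentile (line). Coding peaks ranged from 55.7% in replicate 1 to 39.9% in replicate 3, and the medians of 3′ UTR peaks (2.18 to 2.67) lay above those of coding peaks in each list.

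Peak lengths fell on a grid. The exonic length was a multiple of 25 nt for 94.9 to 98.0% of peaks, and 25.7%, 27.7% and 32.4% in replicates 1, 2 and 3 were exactly 25 nt long. The number of peaks fell with length but had a second maximum at 175 nt. In replicate 2, 1982 peaks (15.2%) were 175 nt long, against 757 of 150 nt and 268 of 200 nt. In replicate 3, 884 peaks (10.4%) had this length, against 418 of 150 nt and 150 of 200 nt, and in replicate 1 it was 2558 peaks (7.37%), against 1531 and 1047. The 175 nt peaks had median log2 enrichments of 2.18, 3.05 and 2.86 in replicates 1, 2 and 3, above the medians over whole lists of 2.00, 2.29 and 2.11. In replicates 2 and 3, 62.1% and 62.7% of them were 3′ UTR peaks, against 26.2% in replicate 1. Reads were 150 nt long per the labels' protocols, and the part of read or fragment length in this size was not tested.

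Spliced peaks, those with more than 1 exon block, made up 34.2% of replicate 1 (11872 peaks), 20.5% of replicate 2 (2670 peaks) and 16.0% of replicate 3 (1356 peaks), a mean of 23.6% ± 9.50 (SD, n = 3). Most had 2 blocks (66.5%, 78.2% and 81.7% in replicates 1, 2 and 3), and the most blocks in a peak were 53, 10 and 11. Of coding peaks, 38.8%, 33.6% and 28.3% were spliced in replicates 1, 2 and 3, while of 3′ UTR peaks 0.628%, 0.352% and 0.214% were. Spliced peaks had lower median log2 enrichment, at 1.91, 2.11 and 1.94 in replicates 1, 2 and 3, against 2.06, 2.34 and 2.13 for single-block peaks. The difference averaged −0.19 ± 0.04 (SD, n = 3). Within coding sequence alone, spliced peaks had medians of 1.91, 2.12 and 1.95 in replicates 1, 2 and 3, against 1.98, 2.05 and 1.90 for single-block peaks. There the spliced median was lower in replicate 1 and higher in replicates 2 and 3, so the direction was not shared.

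Of the positions with a base covered in all lists, 160 (15.5%) were spliced in every list, and those with the most blocks included those of 2 collagen genes. COL6A3, a chain of type VI collagen, held 2 of the 6 positions named for their block number. At 1 of these, the peak of replicate 1 had 18 blocks and 10290 nt of exon. The peaks of replicates 2 and 3 there were shorter, with 8 and 6 blocks and 1265 and 1140 nt. Their log2 enrichments were 1.61, 1.24 and 0.73 in replicates 1, 2 and 3. The other position had peaks of 11, 6 and 6 blocks and log2 enrichments of 1.38, 1.50 and 0.66. COL18A1, whose cleavage yields endostatin, had 14, 5 and 7 blocks at 2.10, 1.80 and 1.44. PTMS, the acidic nuclear protein parathymosin, had 6 blocks in each list with log2 enrichments of 2.54, 2.40 and 2.02. CD81, a tetraspanin, had 5 blocks in each list at 2.79, 2.44 and 2.38. RPLP2, a ribosomal stalk protein, had 5 blocks in each list at 1.80, 0.90 and 0.71. Such a peak spans several exons and does not place a modified base.

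The number of peaks per gene followed the length of the list. The mean was 4.18 in replicate 1, 2.20 in replicate 2 and 1.91 in replicate 3, with medians of 3, 2 and 1. Genes with a single peak made up 23.1%, 45.8% and 53.6% of the lists, and 660, 39 and 20 genes had at least 10 peaks. Concentration was similar between lists all the same, since the tenth of genes with the most peaks held 30.6%, 27.8% and 27.7% of all gene and peak pairs in replicates 1, 2 and 3. The single highest numbers were the 49 peaks of HSPG2 in replicate 1, against 16 and 5 in replicates 2 and 3, and the 33 and 17 peaks of FLNA in replicates 2 and 3, against 5 in replicate 1. HSPG2 encodes the basement membrane proteoglycan perlecan and FLNA an actin cross-linker, and both were chosen after their values were seen.

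The genes with the highest lowest number of peaks had long transcripts, from 4453 nt for SEPT9 to 10005 nt for BCL9L. SRRM2, a scaffold of nuclear speckles, had 20, 17 and 13 peaks in replicates 1, 2 and 3. FASN, the fatty acid synthase, had 22, 12 and 16. MYH9, the non-muscle myosin heavy chain, had 11, 22 and 13. The collagen chains COL5A1 and COL7A1 had 10, 14 and 16 peaks and 20, 9 and 14 peaks, and AGRN, encoding the matrix protein agrin, had 23, 9 and 10. BCL9L, a coactivator of β-catenin, had 18, 11 and 10, the septin SEPT9 had 13, 12 and 10, and the translation scaffold EIF4G1 had 10, 15 and 9. These genes each had an exonic base covered in all lists. Their best peaks ranged from a log2 value of 1.22 for MYH9 in replicate 3 to 3.35 for AGRN in replicate 1, well below the highest values of these lists.

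The most enriched peaks of the lists lay in globin and albumin transcripts. Among genes with a peak in all 3 lists, the highest ranks in each list went to HBA1 and HBA2, the alpha chains of haemoglobin. HBA1 had a log2 enrichment of 9.62 in replicate 1, 10.77 in replicate 2 and 10.16 in replicate 3 in its best peaks. All lists covered a stretch of it at chr16:227079-227411 (hg19, plus strand), but the best peak of replicate 1, at chr16:226704-226978, lay outside that stretch. HBA2 had 9.68, 10.41 and 10.44, with a common stretch at chr16:223271-223528. The 2 genes are near-identical copies, so reads may be split between them and neither value stands alone. ALB, the serum albumin of hepatocytes, headed replicate 2 with a coding peak at 13.25 and had 9.51 in replicate 3, but no peak in replicate 1. HBB, the beta chain of haemoglobin, had a peak in replicate 3 alone, at 7.46. Of the 24 markers of other cell types (blood, endothelium, nerve, liver, muscle and endocrine cells), these 3, HBA1, ALB and HBB, had a peak, and the other 21, among them PTPRC, PECAM1 and APOA1, had none in any list. No input level is known for these transcripts, and their source was not tested.

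Of 25 epithelial and gastric genes, 7 had a peak in any list. Of these, 4 (57.1%) had one in all 3, against 29.3% of all genes with a peak. The 4 were the keratins KRT19, KRT8, KRT7 and KRT18. KRT19 had log2 enrichments of 5.50, 5.65 and 5.82 in replicates 1, 2 and 3, all in coding sequence, although its best peaks lay at different places. At its one position covered in all lists, chr17:39680019-39680043 (hg19, minus strand), the values were 5.50, 5.49 and 5.36. KRT8 had 4.18, 5.66 and 4.07, KRT7 had 3.21, 6.69 and 3.53, and KRT18 had 1.71, 1.60 and 1.00. EPCAM had a peak in replicate 3 alone, at 6.09, and VIL1 in replicates 2 and 3, at 3.45 and 3.33. No peak was listed for CDH1, CLDN18, GATA6 or CEACAM5, and the lack of a peak does not show that the gene is silent. Of 20 mesenchymal genes, 16 had a peak and 11 of these (68.8%) had one in all lists. ACTA2, COL3A1, MMP9 and TWIST2 had no peak in any list. Among the 4 members whose lowest rank over the lists was highest, COL1A1 had 3.26, 3.29 and 3.13 in replicates 1, 2 and 3. FN1, also of these 4, had 2.26, 4.05 and 1.70. In replicates 1 and 3 its value was below the group medians of 2.40 and 1.96. None of the gastric secretory markers MUC5AC, MUC6, TFF1, TFF2, PGC and GKN1 had a peak, so peaks alone do not check the labelled cell type.

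Beside the globins and KRT19, the genes whose lowest rank over the lists was highest were MTRNR2L12, SSR3, MMP1, SPINT2, TAPBP, ALKBH8 and STXBP4. MTRNR2L12 is a nuclear copy of the mitochondrial 16S rRNA gene, and that rRNA is known to carry an m1A written by TRMT61B. Its 175 nt peak at chr3:96336131-96336305 (hg19, minus strand) was identical in all lists, with log2 enrichments of 7.02, 6.44 and 6.51 in replicates 1, 2 and 3. Reads of the mitochondrial rRNA itself may have been placed there, so the assignment is uncertain. SSR3, a subunit of the translocon-associated protein complex at the endoplasmic reticulum, had 3′ UTR peaks at 5.81, 7.02 and 6.86. It held 2 positions covered in all lists, at chr3:156258104-156258128 and chr3:156258254-156258278 (hg19, minus strand). The best peaks of replicates 1 and 3 lay at the former and that of replicate 2 at the latter.

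MMP1, interstitial collagenase, had 5.62, 6.16 and 5.01 in replicates 1, 2 and 3, all in its 3′ UTR. SPINT2, a serine protease inhibitor, had 4.48, 6.19 and 6.13. TAPBP, which loads peptides on MHC class I, had 6.42, 5.62 and 4.51 in its 3′ UTR. STXBP4, a syntaxin-binding protein, had 5.98, 4.98 and 5.23. ALKBH8, a tRNA methyltransferase of the same family as ALKBH3, had 3′ UTR peaks at 4.76, 6.42 and 4.48, with no base covered in all lists. MMP1, SPINT2 and STXBP4 likewise had no common base. The 10 positions with the highest lowest rank were those of HBA1, HBA2, MTRNR2L12, SSR3 (2 positions), KRT19, PLSCR1, PLD3, NCEH1 and KRT8. At the joined position of PLSCR1, a phospholipid scramblase induced by interferon, the best 3′ UTR peaks were at 4.17, 5.14 and 4.28, of which that of replicate 2 did not reach the stretch covered in all lists. NCEH1, a neutral cholesterol ester hydrolase, had a common stretch at chr3:172348764-172348788 (hg19, minus strand) with log2 enrichments of 4.11, 6.70 and 4.07 in replicates 1, 2 and 3.

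**Figure D4:**
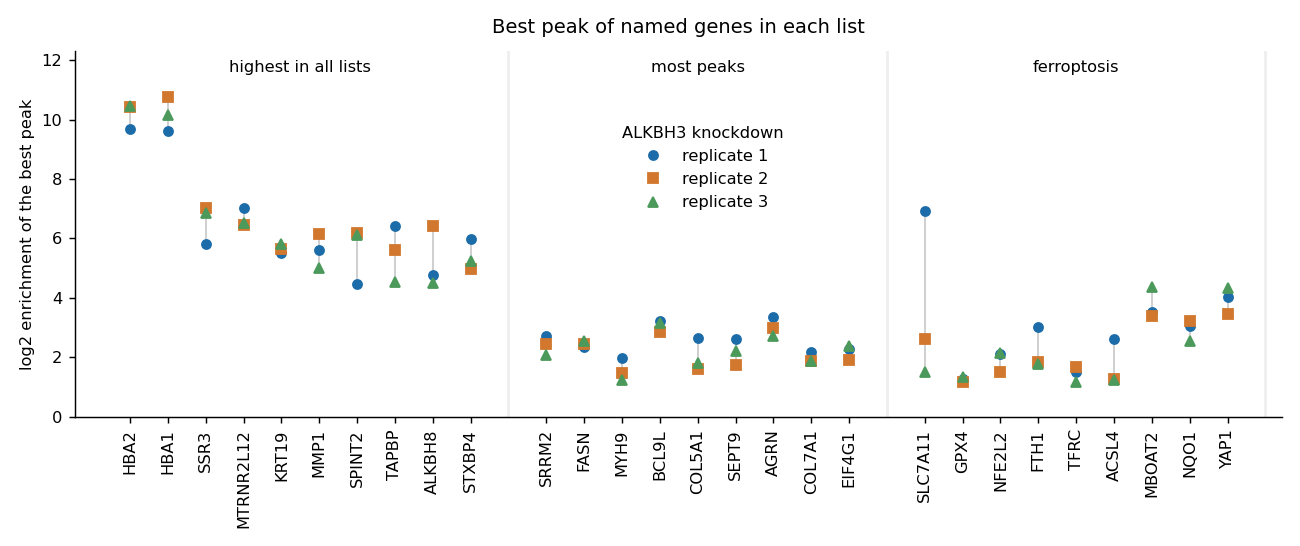
Log2 enrichment (y axis) of the best peak of named genes in each ALKBH3 knockdown list. Shown are the genes whose lowest rank over the lists was highest, those with the most peaks and ferroptosis genes. HBA1 and HBA2 lie between 9.62 and 10.77 in all lists, and the plotted genes with the most peaks between 1.22 and 3.35.

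Across the 2858 genes of all 3 lists, Spearman's rank correlation of best-peak log2 enrichment was 0.54 between replicates 1 and 2, 0.55 between 1 and 3 and 0.64 between 2 and 3, as a description, since genes are not replicates. The rank correlation of the number of peaks per gene was 0.28, 0.18 and 0.30 for the same pairs. The best peak was in the same region class in all lists for 781 genes (27.3%), 350 of them in 3′ UTR, 324 in coding sequence and 14 in 5′ UTR. The best peaks shared an exonic base in 248 genes (8.68%). Genes of all 3 lists had median best-peak log2 enrichments of 2.58, 2.48 and 2.25 in replicates 1, 2 and 3, against 2.60, 2.96 and 2.79 for genes of 1 or 2 lists.

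The 13 mRNAs encoded by mitochondrial DNA each had a peak in all lists, and all 13 had an exonic base covered in all 3, but their enrichments were among the lowest. Their median best-peak log2 enrichment was 1.04, 1.00 and 0.68 in replicates 1, 2 and 3, against 2.60, 2.73 and 2.46 over all genes with a peak. MT-ND5 and MT-ND6, subunits of complex I, stood above the rest. MT-ND5, whose mRNA is known to carry an m1A written by TRMT10C, had log2 enrichments of 2.52, 2.45 and 1.36 in replicates 1, 2 and 3. Its peak covered 1787, 1762 and 1762 nt of a transcript listed at 1812 nt, so it does not place the mark. MT-ND6, encoded on the other strand, had 3.10, 2.23 and 1.62 in a peak with identical ends in all lists. MT-ND3, also of complex I, came next in replicates 1 and 2, with 1.52, 1.40 and 0.83. MT-CO2, of cytochrome oxidase, had 1.04, 0.69 and 0.38, and MT-ND2 had 0.81, 0.43 and 0.66. MT-ND4L and MT-ND4, whose reading frames overlap, had the same best peak in each list, as did MT-ATP6 and MT-CO3, so the values of each pair are 1 measurement. MT-ATP8 shared the peak of MT-ATP6 and MT-CO3 in replicates 1 and 2 and had its own best peak in replicate 3, at 0.41. Apart from MT-ND3, MT-ND5 and MT-ND6, the mitochondrial genes named here were chosen after their values were seen.

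**Figure D5:**
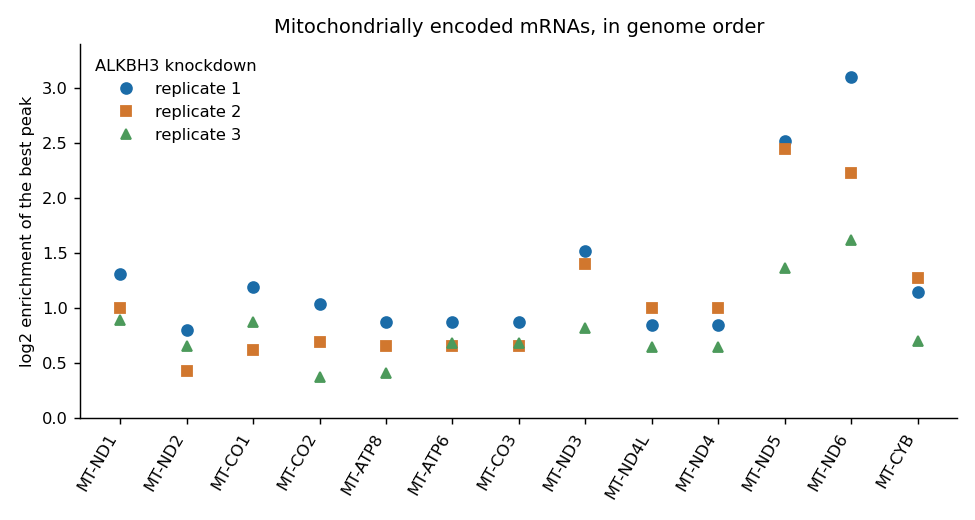
Log2 enrichment (y axis) of the best peak of the 13 mitochondrially encoded mRNAs (x axis, in genome order) in each ALKBH3 knockdown list. MT-ND5 and MT-ND6 reach 1.36 to 3.10, while the other 11 lie between 0.38 and 1.52.

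Gene groups were set beside the 29.3% of all genes with a peak that had one in all 3 lists and beside the 30.0% of those with an exonic base covered in all. In the groups that follow, outside ferroptosis and m1A, the members named are among the 4 whose lowest rank over the lists was highest. They are not to be read as typical of the group. Values given for a gene are those of its best peak in each list, and these peaks need not overlap. Ribosomal proteins had peaks in all lists for 33 of 47 genes of the large subunit (70.2%) and 20 of 32 of the small subunit (62.5%), and 29 and 17 of these had an exonic base covered in all. Their enrichment was low, with median best-peak log2 values of 1.74, 0.87 and 0.74 for the large subunit in replicates 1, 2 and 3. Among the members with the highest lowest rank over the lists, RPL9 had 1.82, 1.68 and 1.79, RPL17 had 3.52, 1.57 and 2.18, and RPL14 had 1.72, 1.55 and 1.93. The SR and hnRNP splicing factors recurred most among nuclear-encoded groups, with 21 of 26 (80.8%). Their median best-peak log2 values were 1.96, 2.52 and 1.88 in replicates 1, 2 and 3, each below that of all genes. The member whose lowest rank over the lists was highest was HNRNPU, at 2.96, 3.15 and 2.44 in its 3′ UTR. Chaperones had 19 of 28 (67.9%) and the ATF4 and unfolded protein response group 15 of 22 (68.2%). In this response group EIF2AK2, the kinase PKR that senses double-stranded RNA, had 3′ UTR peaks at 5.27, 3.93 and 4.11. It had a base covered in all lists, but its best peaks of replicates 1 and 2 did not overlap. ATF6, an endoplasmic reticulum stress sensor, had 3.79, 3.37 and 4.22 and no such base. Translation factors had 20 of 40 (50%) and proteasome subunits 13 of 31 (41.9%). Of these subunits PSMC6 had the highest lowest rank, at 2.92, 5.44 and 3.25 in its 3′ UTR. Aminoacyl-tRNA synthetases with 5 of 20 (25%) and nuclear oxidative phosphorylation genes with 8 of 31 (25.8%) lay near the share of all genes. Transcript abundance was not measured, and its part in these shares was not tested.

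Ferroptosis suppressors had a peak in all lists for 14 of 26 genes (53.8%), and 6 of them had an exonic base covered in all. SLC7A11, the cystine importer and target of erastin, varied most, with 6.93, 2.62 and 1.49 in replicates 1, 2 and 3, and had no common base. GPX4, which reduces lipid peroxides, had 1.25, 1.16 and 1.32, low in each list, with a common base. NFE2L2, the antioxidant transcription factor NRF2, had 2.12, 1.50 and 2.15. NQO1, a quinone reductase driven by NRF2, had 3′ UTR peaks at 3.06, 3.22 and 2.53 with a common base, and MBOAT2, a phospholipid acyltransferase, had 3.51, 3.38 and 4.37 in its 3′ UTR with none. The ferritin chains differed. FTH1 had 3.01, 1.85 and 1.78, but its best peak of replicate 1 did not overlap those of replicates 2 and 3. Its separate 5′ UTR peak with identical ends in all lists, at chr11:61734461-61734635 (hg19, minus strand), had 1.62, 0.88 and 0.74. FTL had 1.13, 0.32 and 0.41. The subunits of glutamate-cysteine ligase, the first enzyme of glutathione synthesis, were GCLC at 2.24, 3.18 and 2.32 and GCLM at 3.85 and 3.06 in replicates 1 and 2. HSPA5, the endoplasmic reticulum chaperone BiP, had 1.18, 0.76 and 1.33. Several suppressors had a peak in 1 list, among them AIFM2 (2.63 in replicate 3), DHODH (2.84 in replicate 1) and GCH1 (6.31 in replicate 2).

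Of 27 ferroptosis drivers, 19 had a peak and 8 of these (42.1%) had one in all lists. Of the 8, 1 had a common base, SAT1, the polyamine acetyltransferase. Its best peaks, at 2.21, 1.79 and 4.07 in replicates 1, 2 and 3, did not overlap each other. YAP1, the Hippo pathway coactivator, had 4.04, 3.46 and 4.31. ACSL4, which activates polyunsaturated fatty acids, had 2.61, 1.27 and 1.24, and TFRC, the transferrin receptor, had 1.50, 1.66 and 1.17. The lipoxygenases ALOX5, ALOX12, ALOX15 and ALOXE3 had no peak. Iron handling genes had 8 of 21 (38.1%) in all lists, including the iron chaperone PCBP1 at 2.83, 3.07 and 2.10. Glutathione and NRF2 target genes had 10 of 24 (41.7%), including GSR, glutathione reductase, with 3′ UTR peaks at 2.96, 3.13 and 2.79 and a common base. Fatty acid and sterol synthesis genes had 14 of 27 (51.9%).

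The m1A machinery had 2 of 10 (20%) in all lists, both readers. YTHDF1 had 2.37 in its 3′ UTR in replicate 1, and 2.27 and 2.00 in coding sequence in replicates 2 and 3. These best peaks did not overlap, although the gene had a base covered in all lists. YTHDC1 had 2.74, 2.12 and 2.65 and no such base. The writers were patchy. TRMT6 had 2.62 in replicate 1 and 1.59 in replicate 2, TRMT61B had 2.88 in replicate 2, and TRMT10C had 4.75 in replicate 1 and 2.39 in replicate 3. FTO, another demethylase of the family, had 2.74 and 2.77 in replicates 1 and 2, and TRMT61A and ALKBH1 had no peak. Of the other members, ALKBH7 had 2.68 in replicate 1, the reader YTHDF2 had 1.63 in replicate 1, and YTHDF3 had 1.78 and 2.96 in replicates 1 and 2. The m6A machinery had 6 of 19 (31.6%) and alkylation damage repair 6 of 16 (37.5%) in all lists. Of the second group LIG1, DNA ligase I, had 2.41, 3.11 and 2.14. Cell cycle genes had 16 of 35 (45.7%), with median best-peak log2 values of 2.10, 2.21 and 1.92 in replicates 1, 2 and 3. Of these genes CCNE2, cyclin E2, had the highest lowest rank, at 3.10, 3.74 and 3.44. Autophagy genes had 11 of 25 (44.0%), with medians of 2.58, 2.39 and 2.37, and the kinase ULK1 among the highest at 3.71, 3.66 and 4.02. Glycolysis genes had 9 of 18 (50%), and of these PFKL, a phosphofructokinase, had 2.17, 1.52 and 1.32. Replication-dependent histones, which have near-identical copies, had 3 of 13 (23.1%).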

How the data were processed

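The deposited files are 1 m1A peak list per IP sample, with peaks called by the authors for each replicate, not on pooled samples. The labels' protocols give mRNA fragments of about 300 nt, an m1A antibody, a stranded library kit and 150 nt reads. The submitters' processing notes name HISAT2 2.1.0, Trimmomatic 0.32, FastQC 0.11.7 and build hg19, with no roles. Which peak caller was used is not given in the sources used here. A peak is listed anew for each transcript, with its position, exon blocks, gene, region and statistics. The deposited log2 enrichment was read as IP over input because all values lie above 0. The p-value of each peak, below 1e-10 throughout, and its false discovery rate are the authors' own and were used within a list only, for description, ranks and filters. No read counts are given, so the depth is unknown.

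Entries were collapsed to distinct peaks with Python 3.11.15 and pandas 2.3.3, and positions are printed counted from 1. Between 0.861% and 1.23% of peaks carried more than 1 gene name, and 8952 of 9769 names (91.6%) matched a current symbol. Overlap counting was tested on simulated intervals. Overlaps used the whole interval on the same strand, with exon blocks as the alternative. Recurrent positions in the breakdowns by enrichment, length and region of single peaks used exon blocks.

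The members and the 25 gene lists were chosen with earlier results of these data known. Named genes are ALKBH3, the 10 genes and 10 positions whose lowest rank of enrichment in any list was highest, the 10 genes with the highest lowest number of peaks, 6 positions with the most blocks, 4 positions in 5′ UTR, up to 4 members per gene list, any ferroptosis or m1A member, and SLC7A11, GPX4, NFE2L2, FTH1, TFRC and ACSL4. Markers of other cell types and of epithelium were all open to naming, and 1 gene that the rule names is not reported here. No genome of this build was used, so no sequence is shown.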

Additional observations from a re-analysis of the deposited data

How the results depend on the processing

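The 16 summary values were recomputed under 120 combinations with an alternative setting. Of these, 76 kept their value within the limits used, and none changed sign. The limits were 1.5 times for a count and 1 SD between lists for a mean. Shares of genes had a narrower limit. For genes with a common base, 33.7% counted as a change from 30.8%, and 30.0% did not. With at least 4-fold enrichment, there were on average 10060 peaks per list, 1457 genes in all lists (17.0%), 291 joined positions, 218 with a common base and 204 genes with one (14.0%), a 5′ UTR share of 3.42%, a median log2 enrichment of 2.68 and a spliced minus single-block difference of −0.13. With equal list length of 8474 peaks, these were 1368 genes (16.4%), 208 positions, 159 with a common base, 149 genes (10.9%), a 5′ UTR share of 3.80% and a median of 2.60. Without collapsing, there were 62238 entries per list and 8.91 per gene, with 3.85% in 5′ UTR, 62.0% in coding sequence and a spliced difference of −0.085. A reciprocal overlap of at least 50% left 224 positions, and the region of the first entry gave 3.68% in 5′ UTR. With only peaks above 25 nt, chosen after the data were seen, 22.4% of genes were in all lists, 33.7% of those had a common base, and the spliced difference was −0.29. Leaving out each replicate in turn, and requiring both others, gave 3127 to 5012 genes (42.5 to 53.2%), 1648 to 3678 positions, 1276 to 2669 genes with a common base (40.8 to 53.3%) and 10765 to 23874 peaks per list, the highest values without replicate 3 and the lowest without replicate 1, where fewer lists raise sharing by construction. The 3′ UTR share without replicate 1 was 41.7% on average, and the coding share 42.6%. No paired analysis was possible because 1 group was described and no test was made. Depth is unknown, and list length limits every shared count.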
